A study of Mus musculus with 22 samples.

Results

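The 10 genes described here encode brakes on growth factor signalling through the kinase ERK or, for Dusp10, mainly on the kinases p38 and JNK. The products are 5 dual-specificity phosphatases (Dusp1, Dusp4, Dusp5, Dusp6 and Dusp10), 3 Sprouty proteins (Spry1, Spry2 and Spry4) and 2 Sprouty-related proteins (Spred1 and Spred2). The genes were chosen by name, with no cut on their measured levels but with earlier results of these data known. All 10 were found among the 11208 genes of the expression table. The cells were NIH/3T3, an established mouse fibroblast line, into which an inducible construct for the cell cycle transcription factor E2F1 or an empty vector (EV) had been stably integrated. All cells were first kept for 48 h in 0.25% serum, which halts proliferation. The E2F1 line and the EV line were then sampled at 0 h without doxycycline and after 2, 6 and 12 h with 500 ng/ml of it, the drug that switches the construct on. The EV line was also sampled after 2, 6 and 12 h in 10% serum, without a serum series for the E2F1 line. Each of these 11 groups had 2 libraries of polyadenylated RNA, and the only EV group labelled 0 h among them is used here as the start of both EV line series. The sources do not say whether the 2 libraries of a group came from separate cultures, so the p-values measure only the spread between these libraries. The species of the E2F1 construct and whether each line is a clone were not given in the sources used here.

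Growth factors in serum bind receptor tyrosine kinases, which act through RAS, RAF and MEK to activate ERK. Active ERK enters the nucleus and induces immediate-early genes, among them genes whose products switch the pathway off again. The DUSPs remove the phosphates that activate ERK, p38 or JNK, the Sprouty proteins act between receptor and RAF, and the SPRED proteins bind neurofibromin, which inactivates RAS. In fibroblasts leaving quiescence, mRNAs of this class are known for an early and brief rise after serum.

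The summed normalized count per library was 34014608 to 37401882 without serum, 45073651 to 46057140 at 2 h of serum and 36963986 to 41407438 at 6 and 12 h of serum. With all libraries scaled to equal totals, the median log2 change of all genes was -0.34 at 2 h of serum and -0.18 at 6 h, against 0.03 and 0.03 on the deposited scale. On that equal scale, 2611 genes were higher and 5907 lower at 2 h of serum, against 4200 and 3752 as deposited. All 10 fibroblast markers listed for the check were in the table, with a summed level of 716674 to 1476027. None of 6 epithelial, 4 endothelial, 3 fat and 3 muscle markers was in it, and of 4 immune markers only Cd14 was, at 62 to 395. In the E2F1 line, mouse E2f1, the gene named by the construct, had 1703 and 1637 normalized counts at 0 h, 1535 and 1755 at 2 h, 3806 and 3602 at 6 h and 2683 and 2845 at 12 h. Both libraries at 6 and at 12 h lay above those of 0 h, and those of 2 h overlapped them. In the EV line E2f1 was between 1307 and 1655 at 0 h and with doxycycline, and had 802 and 740 at 2 h of serum, 1186 and 956 at 6 h and 4615 and 4247 at 12 h. Whether reads of the construct count toward the mouse gene is not known here. The 2 h doxycycline libraries stood apart on 1 measure, whose genes were chosen without them. On a scale from the EV line at 0 h (0%) to the E2F1 line at 0 h (100%), 12 genes that separated the lines by at least 4-fold at all other doxycycline times had a median position of 16.5% and 14.3% in the EV libraries at 2 h. The other EV doxycycline libraries lay between -1.04% and 0.913%, and the E2F1 libraries at 2 h lay at 79.1% and 70.5%. Single genes ran from 0.86% to 148% in the EV libraries at 2 h and from 29.4% to 152% in the E2F1 libraries at 2 h. These 12 genes were picked from the 0, 6 and 12 h libraries, which in itself keeps the EV libraries of those times low on this scale. The part of this shift in the 2 h results below was not tested.

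Promoter sequences were available for 8 of the 10 genes in a RefSeq table (build GRCm38.p6), and Dusp4 and Spry4 were not matched. The stretch from 200 to 41 bases before the annotated start is shown for 4 genes whose mRNA rose at 2 h of serum, because serum-responsive genes are known to carry particular motifs near their start. Capitals mark matches to the motifs searched, and each sequence reads 5′ to 3′ on the gene's strand.
Dusp5, chr19:53528945-53529104, + strand: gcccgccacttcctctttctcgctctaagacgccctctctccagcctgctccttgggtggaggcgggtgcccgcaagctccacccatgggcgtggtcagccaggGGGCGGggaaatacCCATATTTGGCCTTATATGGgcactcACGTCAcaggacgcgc
Dusp6, chr10:99263031-99263190, + strand: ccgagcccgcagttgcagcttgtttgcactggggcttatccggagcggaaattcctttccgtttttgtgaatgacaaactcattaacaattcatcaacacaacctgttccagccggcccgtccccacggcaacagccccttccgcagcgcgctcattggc
Spry2, chr14:105896860-105897019, - strand: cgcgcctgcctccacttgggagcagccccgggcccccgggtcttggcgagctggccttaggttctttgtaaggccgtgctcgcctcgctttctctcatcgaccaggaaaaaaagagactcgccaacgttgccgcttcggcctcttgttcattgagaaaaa
Spred1, chr2:117120871-117121030, + strand: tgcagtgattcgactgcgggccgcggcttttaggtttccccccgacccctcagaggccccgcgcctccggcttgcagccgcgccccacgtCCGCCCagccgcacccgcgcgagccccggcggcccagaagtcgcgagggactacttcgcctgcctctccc
The Dusp5 stretch holds a pair of adjoining CArG boxes, the motif read by serum response factor, at bases -82 to -73 and -72 to -63. It also holds a cAMP response element core (TGACGT, on the other strand as ACGTCA) at -56 to -51 and a GC box (GGGCGG) at -96 to -91. The Dusp6 and Spry2 stretches hold none of the motifs searched, and that of Spred1 holds only a GC box, read on the other strand as CCGCCC, at -110 to -105. Over the 250 bases before the start, on both strands, a CArG box was in 1.47% of 32851 promoters and in Dusp5 alone of the 8 genes. The cAMP response element core was in 6.47% of promoters and in Dusp1, Dusp5 and Spred2. The E2F site (GCGGGAA or GCGCCAA) was in 5.62% of promoters and in Dusp1, at -165 to -159. The AP-1 site (TGACTCA, in 4.46% of promoters) and the ETS site (CCGGAAG, in 6.91%) were in none of the 8. The GC box was in 32.7% of promoters and in 6 of the 8 genes. The letters of an E2F site and a GC box can overlap, which was not the case in these 8 genes. A match describes the letters in this window and does not show that a factor binds there.

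In starved EV cells at 0 h, the genes differed widely in level once set per kilobase of exon (GENCODE M21, GRCm38). Spry2 was highest, at 1120 normalized counts per kb. Dusp1 (773), Dusp6 (558), Dusp5 (512) and Spred1 (492) came next, and their order is not resolved because the 2 libraries of Dusp5 spanned 305 to 719. Spred2 stood at 325, within the range of Dusp5, and Spry1 (182), Dusp10 (152), Spry4 (89.4) and Dusp4 (14.2) followed without overlap between their libraries. At 2 h of serum the order was different, with Dusp5 at 8550, Dusp6 at 4980 and Spry2 at 3200 normalized counts per kb. Spred2 (1910) and Spred1 (1840), and likewise Dusp4 (1280) and Dusp10 (1170), then overlapped between libraries. Dusp1 (405), Spry4 (273) and Spry1 (141) were lowest.

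Before any treatment, 1 of the 10 genes was called different between the lines. Dusp10, whose product acts mainly on p38 and JNK, had 986 and 1455 normalized counts in the E2F1 line at 0 h and 403 and 521 in the EV line. Both E2F1 libraries lay above both EV libraries, a 2.61-fold difference (log2 1.38 ± 0.21 SE, limma adjusted p = 0.000364). Of all genes, 8.86% were called higher in the E2F1 line at 0 h. Spry2 had 1647 and 1808 in the E2F1 line against 2289 and 2371 in the EV line, without overlap. Its log2 difference of -0.43 did not pass, but passed with the compared groups alone (limma adjusted p = 0.0443). Dusp4 showed 202 and 96 against 36 and 42 without overlap, a log2 difference of 1.81 that did not pass (adjusted p = 0.05004). This difference passed with a pseudocount of 8, with equal totals and in 1 other fit, and in none of the 4 fits with a library left out, with adjusted p from 0.0331 to 0.329 over all of them.

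Serum raised 8 of the 10 mRNAs within 2 h and lowered 1. The median of the 10 log2 changes was 2.23, against 0.03 for all genes. In this comparison 37.5% of all genes were called higher and 33.5% lower, so a call in itself was common. At 6 h, 6 were higher and 1 lower (background 36.5% and 31%), with a median of 0.79. At 12 h, 5 were higher and 2 lower (background 36% and 29.7%), with a median of 0.45. These are bulk measurements, in which fewer cells carrying an mRNA and less of it in each cell cannot be told apart.

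**Figure D1:**
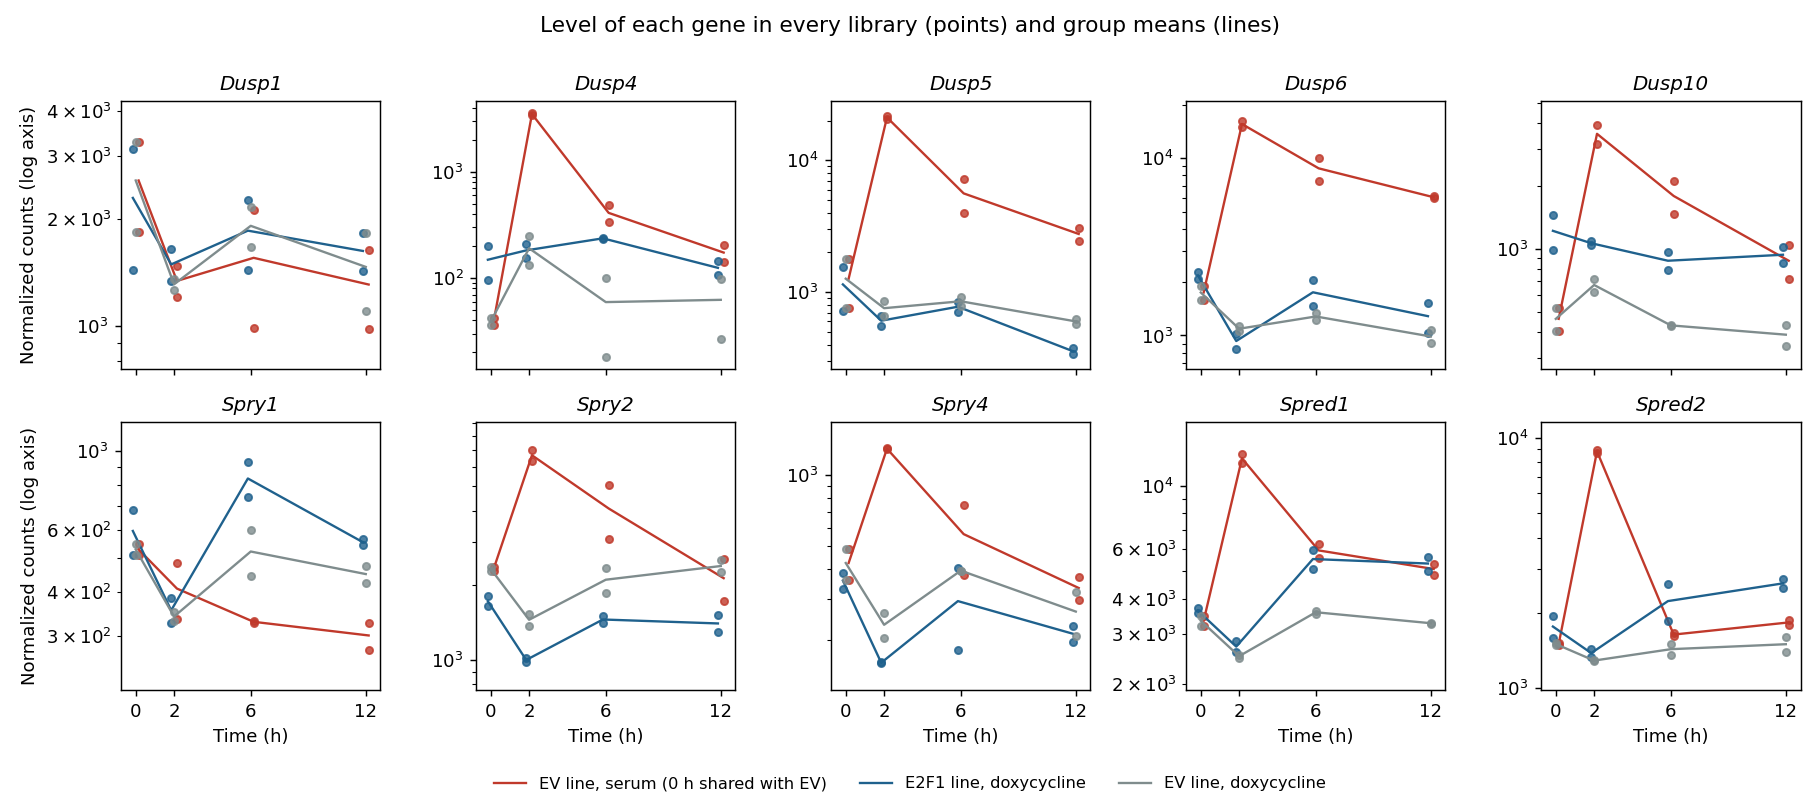
Normalized counts (log axis) of each gene against time in hours; points are single libraries, lines join group means, and the serum series starts from the EV 0 h libraries. Dusp4, Dusp5, Dusp6, Dusp10, Spry2, Spry4, Spred1 and Spred2 are highest at 2 h among the serum times sampled. Every library of both doxycycline series lies below the 2 h serum libraries for all 8.

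Dusp5 (chr19:53529109-53542431) encodes a nuclear phosphatase specific for ERK and reached the highest level of the set. Its normalized counts were 755 and 1777 in the EV line at 0 h, 20642 and 21631 at 2 h of serum, 7238 and 3985 at 6 h, and 3068 and 2459 at 12 h. All 6 serum libraries lay above both 0 h libraries, and the 0 h libraries differed from each other 2.35-fold. The rise was 18.2-fold at 2 h (log2 4.19 ± 0.34 SE, limma adjusted p = 3.21e-09) and 4.63-fold at 6 h (log2 2.21, adjusted p = 1.48e-05). At 12 h it was 2.37-fold (log2 1.24, adjusted p = 0.00367), a call lost without EV 0 h replicate 1 (log2 0.63, adjusted p = 0.122). An exon of AC137853.2 overlaps Dusp5 on the other strand, and whether counting used strand is not given in the sources used here, so a share of these reads is uncertain.

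Dusp4 encodes a nuclear phosphatase for ERK, JNK and p38 and showed the largest fold change of the 10. It had 36 and 42 normalized counts at 0 h, 3571 and 3428 at 2 h of serum, 484 and 339 at 6 h, and 205 and 143 at 12 h. Every serum library was above both 0 h libraries, and the libraries of each later time lay below those of the time before. The rise was 87.7-fold at 2 h (log2 6.46 ± 0.60 SE, limma adjusted p = 2.2e-08), 10.2-fold at 6 h (log2 3.35, adjusted p = 8.6e-05) and 4.32-fold at 12 h (log2 2.11, adjusted p = 0.00513). The gene lies at chr8:34807297-34819894.

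Dusp1 (chr17:26505590-26562128), a nuclear phosphatase of p38, JNK and ERK and a classical immediate-early gene, moved the other way at the times sampled. No library was taken between 0 and 2 h, so an earlier rise or fall would not be seen. It had 3288 and 1833 normalized counts at 0 h, 1209 and 1470 at 2 h of serum, 2118 and 991 at 6 h, and 1633 and 984 at 12 h. The 2 h and 12 h libraries were all below the 0 h libraries, whereas at 6 h the groups overlapped. It fell 1.84-fold at 2 h (log2 -0.88 ± 0.38 SE, limma adjusted p = 0.0476) and 1.94-fold at 12 h (log2 -0.95, adjusted p = 0.036). At 6 h the log2 difference of -0.76 did not pass (adjusted p = 0.087), but passed with equal totals (-0.97, adjusted p = 0.0331) and without EV 0 h replicate 2 (-1.18) or serum 6 h replicate 1 (-1.31). The calls at 2 and 12 h rest on few libraries. Without EV 0 h replicate 1 the 2 h log2 difference was -0.46 (adjusted p = 0.378) and that of 12 h was -0.53 (adjusted p = 0.321), and without the 4 doxycycline 2 h libraries in the fit the adjusted p was 0.0653 and 0.0513. The 2 h call was also lost with a mean of at least 500 (adjusted p = 0.0503) and without either serum 2 h library, and the 12 h call without serum 12 h replicate 2. Replicate 1 of Dusp1 was the higher library in 8 of the 11 groups, and its exons overlap those of Ergic1 on the other strand.

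Dusp6, the cytoplasmic ERK phosphatase widely used as a readout of ERK activity, kept the largest mean share of its 2 h rise among the 8 raised genes. It had 1585 and 1912 normalized counts at 0 h, 16188 and 15030 at 2 h of serum, 10081 and 7472 at 6 h, and 6118 and 5940 at 12 h. All 6 serum libraries were more than 3 times the higher 0 h library. The rise was 8.96-fold at 2 h (log2 3.16 ± 0.18 SE, limma adjusted p = 2.62e-11), 4.98-fold at 6 h (log2 2.32) and 3.46-fold at 12 h (log2 1.79, adjusted p = 1.01e-07). The gene lies at chr10:99263231-99267489.

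Dusp10 (chr1:184013302-184075636) had 403 and 521 normalized counts at 0 h, 3189 and 3932 at 2 h of serum, 2110 and 1477 at 6 h, and 1039 and 716 at 12 h. No serum library overlapped the 0 h libraries at any time. It rose 7.71-fold at 2 h (log2 2.95 ± 0.21 SE, limma adjusted p = 7.01e-10), 3.85-fold at 6 h (log2 1.94) and 1.88-fold at 12 h (log2 0.91, adjusted p = 0.0011).

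Among the Sprouty genes, Spry2 and Spry4 rose and Spry1 fell. Spry2 (chr14:105891947-105896819), which binds the adaptor GRB2 and the ubiquitin ligase CBL, had 2289 and 2371 normalized counts at 0 h and 7009 and 6337 at 2 h of serum. It had 5073 and 3083 at 6 h and 2543 and 1735 at 12 h, so the groups overlapped again by 12 h. The rise was 2.86-fold at 2 h (log2 1.52 ± 0.19 SE, limma adjusted p = 7.19e-07) and 1.70-fold at 6 h (log2 0.76, adjusted p = 0.00136). The 6 h call was lost without serum 6 h replicate 1 (log2 0.40, adjusted p = 0.0541), and the 12 h difference of -0.15 did not pass (adjusted p = 0.488).

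Spry4, which blocks RAF activation downstream of receptors, was called higher only at 2 h. It had 361 and 489 normalized counts at 0 h, 1295 and 1300 at 2 h of serum, 750 and 377 at 6 h, and 371 and 295 at 12 h. Only the 2 h libraries lay wholly above those of 0 h. The gene rose 3.08-fold at 2 h (log2 1.62 ± 0.32 SE, limma adjusted p = 0.000188), and the log2 differences of 0.34 at 6 h and -0.34 at 12 h did not pass (adjusted p = 0.36 and 0.355).

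Spry1 (chr3:37639947-37644598), an inhibitor of receptor signalling upstream of RAS, had 547 and 508 normalized counts at 0 h, 336 and 482 at 2 h of serum, 327 and 332 at 6 h, and 328 and 275 at 12 h. All 6 serum libraries were below both 0 h libraries. It fell 1.60-fold at 6 h (log2 -0.68 ± 0.19 SE, limma adjusted p = 0.0044) and 1.75-fold at 12 h (log2 -0.81, adjusted p = 0.00114). The 2 h difference of -0.39 did not pass (adjusted p = 0.0764), but passed at -0.76 with equal totals (adjusted p = 0.00131). An exon of Gm42922 overlaps the gene on the other strand.

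Both SPRED genes rose at 2 h of serum, and Spred1 alone of them was still called at 6 and 12 h. Spred1 (chr2:117121374-117182279), the partner of neurofibromin lost in Legius syndrome, had 3210 and 3469 normalized counts at 0 h and 12959 and 12034 at 2 h of serum. It stayed at 6250 and 5579 at 6 h and at 5307 and 4862 at 12 h, above both 0 h libraries throughout. The rise was 3.74-fold (log2 1.90 ± 0.09 SE, limma adjusted p = 2.28e-12), 1.77-fold (log2 0.82) and 1.52-fold (log2 0.61, adjusted p = 9.38e-06) at 2, 6 and 12 h.

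Spred2 (chr11:19924375-20024026), its close relative, had 1512 and 1494 normalized counts at 0 h and 8923 and 8726 at 2 h of serum. At 6 h it had 1665 and 1615 and at 12 h 1874 and 1793, close to the start though without overlap. The rise was 5.87-fold at 2 h (log2 2.55 ± 0.13 SE, limma adjusted p = 4.87e-12). The log2 differences of 0.13 at 6 h and 0.29 at 12 h did not pass (adjusted p = 0.386 and 0.0531), and the 6 h difference was -0.089 with equal totals.

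From 2 to 6 h of serum all 8 raised genes fell, against 24.3% of all genes called lower. The 8 were picked for a rise in the same 2 h libraries, which favours a later fall. The share among all genes raised at 2 h is not given here. The log2 changes ran from -3.11 for Dusp4 and -2.43 for Spred2 to -0.85 for Dusp6 and -0.75 for Spry2. The call was lost for Spry2 (log2 -0.39) and Spry4 (log2 -0.79) without serum 6 h replicate 2. From 6 to 12 h, 4 fell further, against 20.6% of all genes. These were Dusp10 (log2 -1.03), Dusp5 (-0.97), Spry2 (-0.91) and Dusp6 (-0.53), of which Dusp5 and Dusp6 lost the call under quantile normalization, under equal totals and without any of 3 libraries (serum 6 h replicate 1 and either serum 12 h library).

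The share of the 2 h excess over 0 h that was left showed the range of decay, as a description with no test. Dusp6 kept 50.7% at 6 h and 30.9% at 12 h, Dusp10 43% and 13.4%, and Spred1 28.1% and 19.1%. Dusp5 kept 21.9% and 7.54%, and Dusp4 10.8% and 3.9%. Spred2 kept 1.87% and 4.51%. Spry2 kept 40.2% at 6 h, with its libraries at 17.3% and 63.2%, and Spry4 15.9%, with libraries at -5.5% and 37.2%. Both were below the 0 h mean at 12 h, at -4.4% and -10.5%. The libraries of Spred1 and Spred2 did not overlap at either time.

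**Figure D2:**
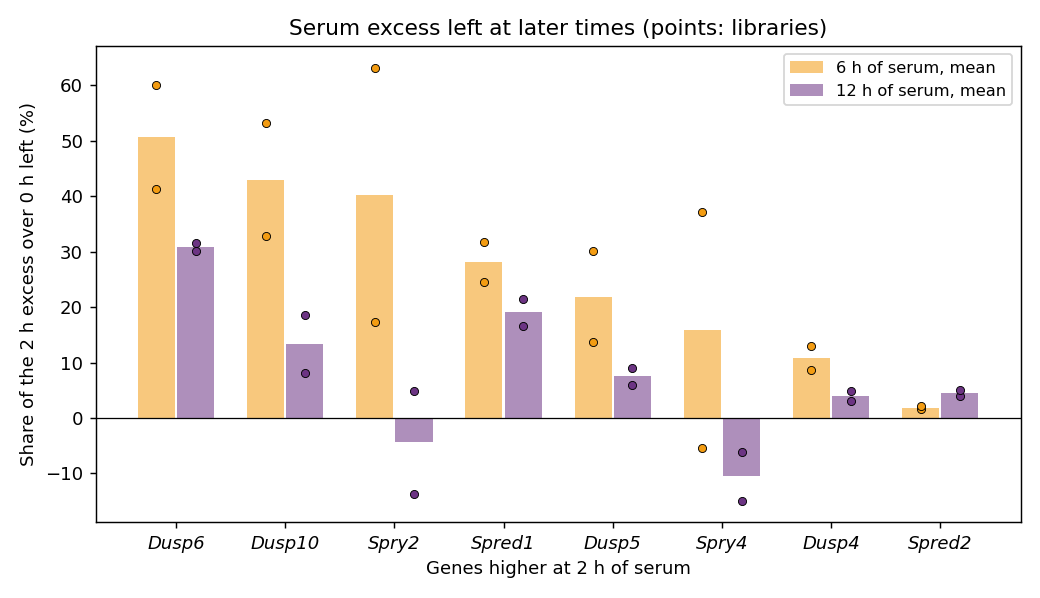
Share (%) of the excess over EV 0 h at 2 h of serum that was left at 6 and 12 h, for the 8 genes higher at 2 h; bars are shares of the group mean and points are single libraries. Dusp6 has the highest mean share at both times (50.7% and 30.9%) and Spred2 the lowest at 6 h (1.87%). The libraries do not resolve this order at 6 h. A Spry2 library (63.2%) lies above both of Dusp6 (41.3% and 60.1%), which also overlap Dusp10 (32.8% and 53.2%). A Spry4 library (-5.5%) lies below both of Spred2 (1.53% and 2.21%).

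After 2 h of doxycycline, members were lower in both lines. In the E2F1 line 3 were lower and none higher, against 0.99% of all genes called lower and 0.865% higher. Dusp6 had 2096 and 2271 normalized counts at 0 h and 837 and 1024 at 2 h, a 2.36-fold drop (log2 -1.24 ± 0.18 SE, limma adjusted p = 0.00133). It passed with each library left out in turn. Spry2 went from 1647 and 1808 to 1018 and 988 (log2 -0.78, adjusted p = 0.0361) and Spred1 from 3697 and 3549 to 2589 and 2824 (log2 -0.42, adjusted p = 0.0191), each without overlap. These calls were lost with any 1 of the 4 libraries left out, with adjusted p from 0.0985 to 0.299 for Spry2 and from 0.0669 to 0.193 for Spred1.

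In the EV line at 2 h, 3 of the 10 were lower and 1 higher, against 2.43% and 4.93% of all genes. Dusp6 went from 1585 and 1912 normalized counts to 1056 and 1127 (log2 -0.67, limma adjusted p = 0.0281), Spry2 from 2289 and 2371 to 1542 and 1368 (log2 -0.68, adjusted p = 0.0319), and Spred1 from 3210 and 3469 to 2533 and 2474 (log2 -0.41, adjusted p = 0.00864). In the EV line the Spry2 call was lost with any 1 of the 4 libraries left out. The Dusp6 call was lost without EV 0 h replicate 2 or either EV 2 h library. Dusp6, Spry2 and Spred1 were the members called lower in each line. The comparisons share no library, but they come from the same limma fit with a shared spread. Both also use the 2 h doxycycline libraries, which stood apart in each line, so they are not independent support. Dusp4 was higher, from 36 and 42 to 134 and 248 (log2 2.20 ± 0.60 SE, adjusted p = 0.0339), a call lost with any 1 of the 4 libraries left out. Dusp10 had 720 and 623 against 403 and 521 (log2 0.55, adjusted p = 0.128). Dusp4 and Dusp10 are also the genes with the highest ratio between the lines at 0 h. For Dusp4 the E2F1 line at 0 h had 202 and 96, a mean of 149 against 191 in the EV line at 2 h. For Dusp10 it had 986 and 1455, above the EV libraries at 2 h. The 12 line-separating genes had median positions of 16.5% and 14.3% in the EV libraries at 2 h. The part of that shift in either rise was not tested. Without EV 0 h replicate 2 none of the 4 members passed, and the same held without EV 2 h replicate 2. The change at 2 h did not pass as different between the lines for any member. In that test 0.143% of all genes were called in either direction, and the difference for Dusp6 was -0.56 (adjusted p = 0.599). With the 4 doxycycline 2 h libraries left out, neither line has a value at 2 h.

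At 6 h of doxycycline the E2F1 line showed 3 members higher and none lower, against 28.8% and 22.9% of all genes. The firmest was Spred1, with 3697 and 3549 normalized counts at 0 h and 5931 and 5097 at 6 h. Both 6 h libraries lay above both of 0 h, a 1.52-fold rise (log2 0.60 ± 0.09 SE, limma adjusted p = 1.76e-05) that passed in all 8 settings and with each library left out. Spry1 went from 681 and 509 to 932 and 742 (log2 0.50, adjusted p = 0.0362) and Spred2 from 1943 and 1588 to 2604 and 1857 (log2 0.32, adjusted p = 0.0385), the latter with overlap. Under quantile normalization the adjusted p was 0.059 for Spry1 and 0.298 for Spred2, and under equal totals 0.0899 and 0.163. Under these settings Dusp6 (log2 -0.51, adjusted p = 0.0212, and -0.45, adjusted p = 0.0385) and Dusp10 (-0.57, adjusted p = 0.0304, and -0.57, adjusted p = 0.0313) passed as lower, so that 1 member was higher and 2 were lower in each. Both calls were also lost without E2F1 6 h replicate 1 (log2 0.33 for Spry1 and 0.08 for Spred2) or without E2F1 0 h replicate 2 (0.29 and 0.18). Without the doxycycline 2 h libraries in the fit Spred2 had an adjusted p of 0.0537.

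At 12 h of doxycycline the E2F1 line had 2 members higher and 2 lower, against 31.8% and 29.7% of all genes. Spred1 stood at 5619 and 5014 normalized counts (log2 0.55, limma adjusted p = 3.07e-05) and Spred2 at 2737 and 2513 (log2 0.58, adjusted p = 0.000643), both without overlap with 0 h. Dusp5 went from 726 and 1565 to 376 and 338, a 2.98-fold drop (log2 -1.58 ± 0.34 SE, adjusted p = 0.000583). Dusp6 went from 2096 and 2271 to 1535 and 1036 (log2 -0.79, adjusted p = 0.000891). The 4 calls passed in all 8 settings and with each library left out. Spry4, with 386 and 330 at 0 h and 230 and 196 at 12 h, did not pass (log2 -0.75, adjusted p = 0.0518), but passed with equal totals (-0.80, adjusted p = 0.038) and with the compared groups alone (adjusted p = 0.00378).

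Between 2 and 6 h of doxycycline in the E2F1 line, 5 members rose, against 27.4% of all genes called higher. They were Spry1 (log2 1.23), Spred1 (1.02), Dusp6 (0.90), Spred2 (0.67) and Spry2 (0.54), each starting from a 2 h group mean below that of 0 h. The call for Spry2 was lost with equal totals (0.42, limma adjusted p = 0.0724) and with any 1 of the 4 libraries left out. Between 6 and 12 h, Dusp5 (log2 -1.11) and Spry1 (-0.59) fell, against 20.2% of all genes called lower. Both calls were lost without either 12 h library or E2F1 6 h replicate 1, with log2 values from -1.19 to -0.99 for Dusp5 and from -0.61 to -0.42 for Spry1.

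The EV line with doxycycline showed no member called at 6 h, where limma called 0.134% of all genes higher and 0% lower. Of all genes, 661 had an unadjusted p under 0.05 there, and of the members 1 did. At 12 h only Dusp6 was called, lower at 1067 and 907 normalized counts (log2 -0.82 ± 0.18 SE, adjusted p = 0.0129), against 3.42% of all genes called lower and 0.749% higher. That call was lost without EV 0 h replicate 2 or either 12 h library, with log2 values from -0.94 to -0.69.

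**Figure D3:**
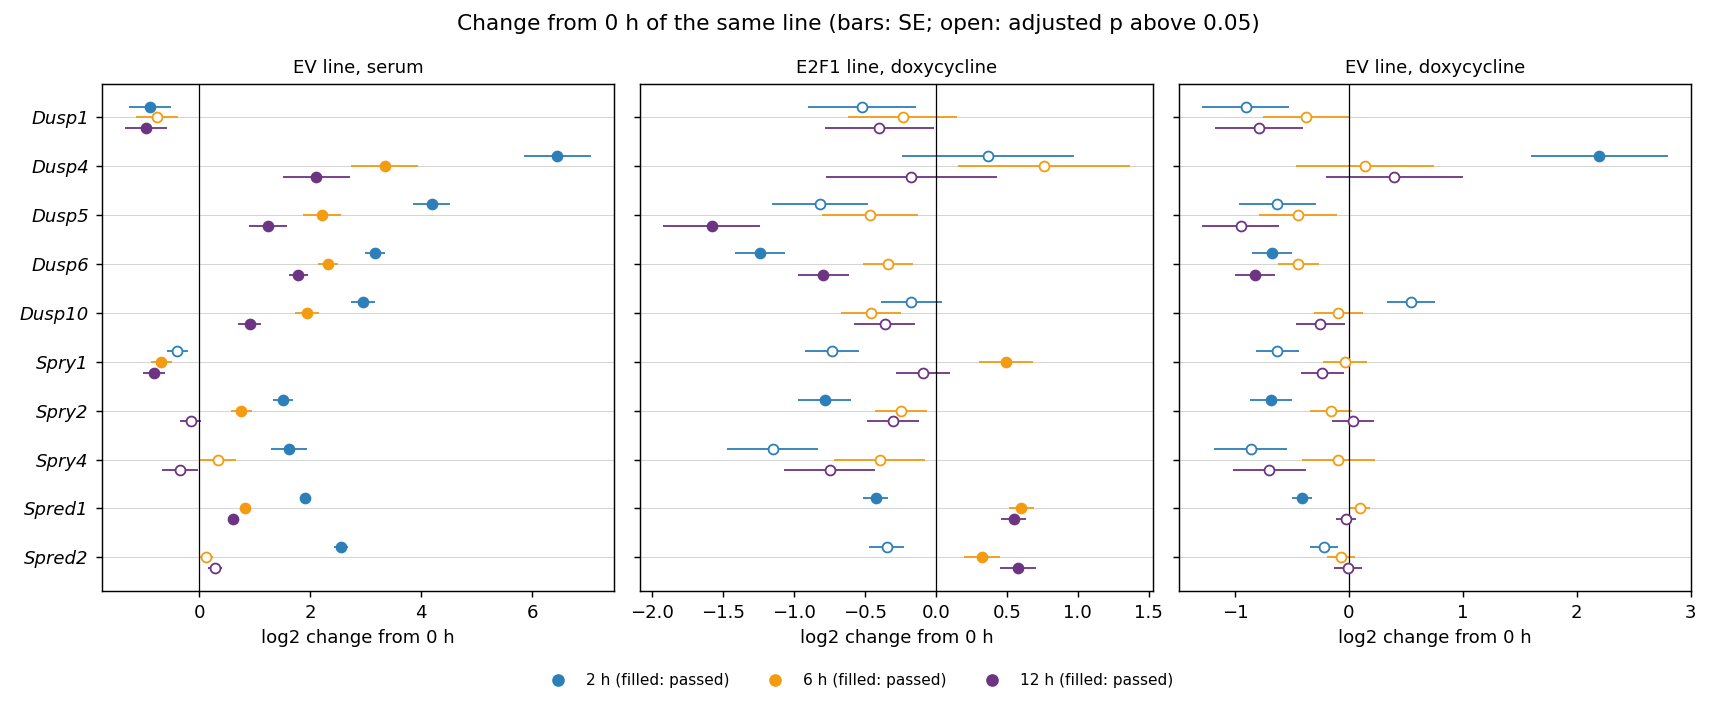
log2 change from 0 h of the same line (x axis) for each gene at 2, 6 and 12 h in the serum series and in the doxycycline series of the E2F1 and EV lines; bars are standard errors from limma and filled points passed at an adjusted p of 0.05. The serum panel spans up to 6.46, and its x axis is wider than those of the doxycycline panels.

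The difference between the lines' changes tests what the E2F1 line showed with doxycycline beyond what the EV line showed. Line and construct go together here, so a response that belongs to the line cannot be told apart from E2F1 induction. Only the SPRED genes passed this test. Spred1 changed by 0.50 more (log2, SE 0.13, limma adjusted p = 0.00437) at 6 h in the E2F1 line, and by 0.58 more at 12 h (SE 0.13, adjusted p = 0.000821). In the EV line it stayed at 3528 and 3629 normalized counts at 6 h and 3290 and 3256 at 12 h, below every E2F1 library of those times. Spred2 changed by 0.58 more at 12 h (SE 0.18, adjusted p = 0.0107), with 1607 and 1395 in the EV line against 2737 and 2513. Of all genes, 22.2% were called higher in this test at 6 h and 27.3% at 12 h, and the members' shares (1 and 2 of 10) were below these. Spred1 passed at both times with each of the 8 libraries left out. Spred2 lost the call without E2F1 0 h replicate 2 (log2 0.44, adjusted p = 0.0704) or without EV 12 h replicate 2 (0.48, adjusted p = 0.0541). For Spry1 the 6 h difference was 0.53 (adjusted p = 0.135). For Dusp6, lower at 12 h in each line, the 12 h difference was 0.03 (SE 0.25, adjusted p = 0.926). For Dusp5 it was -0.63 (SE 0.48, adjusted p = 0.289), and it passed without E2F1 0 h replicate 1 (-1.18, adjusted p = 0.0458) or without EV 0 h replicate 2 (-1.25, adjusted p = 0.0276).

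Serum in the EV line and doxycycline in the E2F1 line were set side by side as changes from each line's own 0 h libraries. This comparison also differs in line, since serum was given only to EV cells. At 2 h, 8 members changed less in the E2F1 line, against 30.2% of all genes, with differences from -6.09 for Dusp4, -5.00 for Dusp5 and -4.40 for Dusp6 to -2.30 for Spry2. At 6 h, 5 were lower by this measure (Dusp4, Dusp5, Dusp6, Dusp10 and Spry2, from -2.67 to -1.01) and Spry1 was higher by 1.17 (limma adjusted p = 0.00114), against 27.6% and 30.3% of all genes. At 12 h, 4 were lower (Dusp4 -2.28, Dusp5 -2.82, Dusp6 -2.58 and Dusp10 -1.27) and Spry1 higher by 0.72 (adjusted p = 0.0342), against 23.8% and 25%. The 6 h call for Dusp4 was lost without E2F1 0 h replicate 1 (-2.05, adjusted p = 0.0772). Its 12 h call was lost without that library, E2F1 12 h replicate 2, serum 12 h replicate 1 or either EV 0 h library. The 12 h call for Spry1 was lost under quantile normalization (0.57, adjusted p = 0.0917), and without either E2F1 12 h library, E2F1 0 h replicate 2, EV 0 h replicate 1 or serum 12 h replicate 2. The members still lower by this measure at 12 h were the 4 phosphatases raised by serum. Spred1 did not pass at 6 or 12 h. At 12 h it stood at 5307 and 4862 normalized counts with serum and 5619 and 5014 with E2F1 induction, overlapping, and the difference in change was -0.05 (SE 0.13, adjusted p = 0.747).

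**Figure D4:**
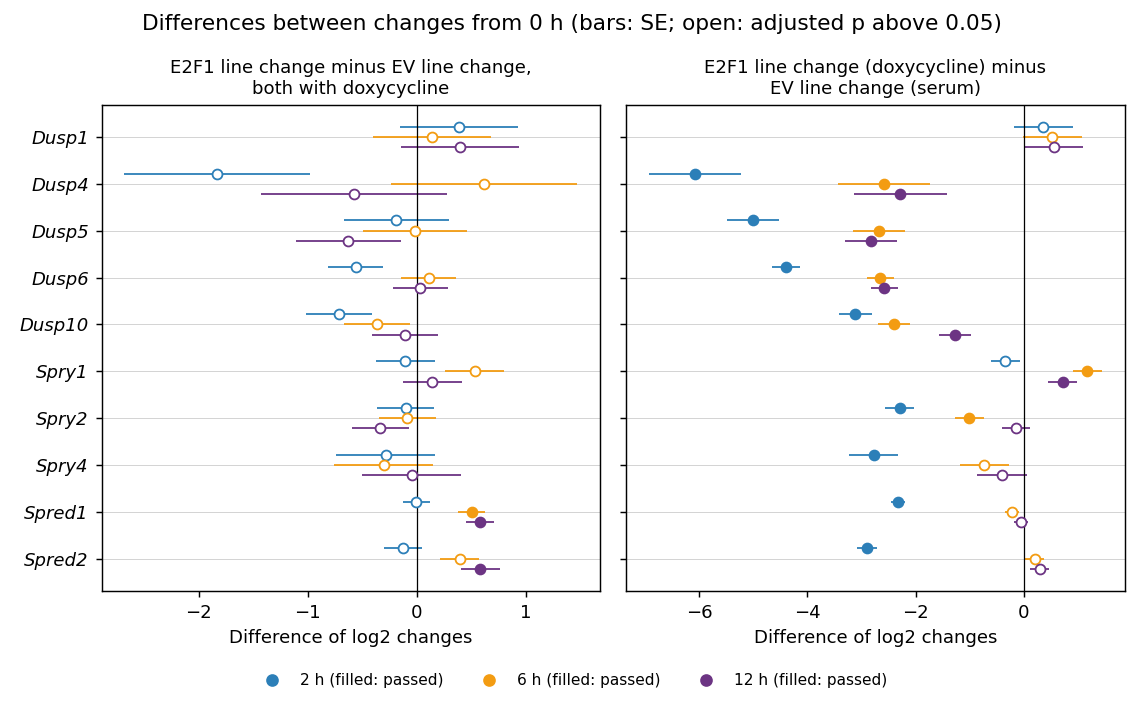
Difference of log2 changes from 0 h (x axis) between the E2F1 line and the EV line with doxycycline (left) and between the E2F1 line with doxycycline and the EV line with serum (right), at 2, 6 and 12 h; bars are standard errors and filled points passed at an adjusted p of 0.05. On the left only Spred1 (0.50 and 0.58) and Spred2 (0.58) are filled; on the right the phosphatases Dusp4, Dusp5, Dusp6 and Dusp10 are filled at all times.

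The rest of the pathway was read from lists of related genes. Their counts stand beside the shares of all genes called higher and lower in the same comparison. These were 37.5% and 33.5% at 2 h of serum, and 36.5% and 31% at 6 h. In the E2F1 line they were 28.8% and 22.9% at 6 h of doxycycline, and 31.8% and 29.7% at 12 h. Of 13 known transcriptional targets of ERK in the table, 10 were higher and 1 lower at 2 h of serum, with a median log2 change of 3.12, and 12 were higher at 6 h. Lif, a cytokine, had the largest rise (62 and 73 normalized counts to 13633 and 11103, log2 7.49), and Fosl1, an AP-1 subunit, rose from 120 and 222 to 3064 and 2991 (log2 4.20). Phlda1, a target of ERK in many cells, rose by 3.12. The PEA3 factors Etv5 (1.85) and Etv4 (1.59) rose, while their relative Etv1 fell by 1.82. In the E2F1 line 5 of the 13 were higher and 2 lower at 6 h (5 and 4 with equal totals). Etv4 had 1490 and 901 against 808 and 493 (log2 0.88) and Etv5 2698 and 1843 against 1428 and 1146 (log2 0.80). Phlda1 (0.74) and Lif (2.15) also rose, while Fosl1 had 423 and 263 against 318 and 286 (log2 0.14, limma adjusted p = 0.695). Lif was also above its 0 h libraries (62 and 73) in the EV line with doxycycline, at 287 and 408 at 2 h and 241 and 118 at 6 h. None of the 13 was called in the EV line with doxycycline at 6 h. In the EV line with doxycycline at 12 h, 4 of the 13 were lower and none higher, against 3.42% and 0.749% of all genes. Etv4 (-1.28) and Etv5 (-0.81) were among the 4.

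Of 14 other feedback inhibitors in the table, 10 were higher and 2 lower at 2 h of serum (median log2 1.01). At 6 h in the E2F1 line 4 were higher and 4 lower, near the 28.8% and 22.9% of all genes. Errfi1, an inhibitor of the EGF receptor, had 1616 and 3737 normalized counts at 0 h and 23720 and 25693 at 2 h of serum (log2 3.33). With doxycycline at 2 h it fell by 1.63 in the E2F1 line and by 1.38 in the EV line. At 12 h it fell by 1.37 in the E2F1 line and had a log2 difference of -1.23 in the EV line (limma adjusted p = 0.0618), and the lines' changes differed there by -0.13 (adjusted p = 0.848). Il17rd (Sef), a membrane inhibitor of FGF signalling, went from 1385 and 1107 to 147 and 153 at 2 h of serum, a drop of 3.04, and fell by 0.90 at 6 h in the E2F1 line. Spred3, the third SPRED gene, had 1259 and 1336 at 0 h in the E2F1 line and 665 and 593 at 6 h. It fell by 1.05 at 6 h and by 1.43 at 12 h, in the direction opposite to Spred1 and Spred2, and by 0.49 at 2 h of serum. Cbl, a ubiquitin ligase for receptors, rose by 0.78 at 6 h in the E2F1 line.

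Of 7 other MAP kinase phosphatases in the table, 4 were higher and none lower at 2 h of serum (median log2 0.83; 4 and 2 with equal totals), and 3 were higher and 1 lower at 6 h in the E2F1 line. Dusp9, a cytoplasmic phosphatase preferring ERK, went from 117 and 101 normalized counts to 713 and 771 at 2 h of serum (log2 2.76) and showed 106 and 98 against 95 and 105 in the E2F1 line at 6 h. Dusp7, the cytoplasmic relative of Dusp6, had 1744 and 1505 in the E2F1 line at 0 h and 3861 and 3331 at 6 h. It rose by 1.15, and the libraries did not overlap. Dusp14 rose by 1.16 at 6 h in the E2F1 line, Dusp16, a JNK and p38 phosphatase, rose by 0.41, and Dusp3 fell by 0.61.

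Of 18 core genes of the ERK cascade, 8 were higher and 4 lower at 2 h of serum (median log2 0.10), but 6 higher and 11 lower with equal totals and 6 and 8 under quantile normalization. At 6 h in the E2F1 line 9 were higher and 2 lower, and 8 and 5 with equal totals. Mapk3 (ERK1) fell by 0.94 at 2 h of serum and rose by 0.51 at 6 h in the E2F1 line, and Map2k1 (MEK1) rose by 0.75 at 2 h of serum. The scaffold Ksr1 fell by 1.14 at 2 h of serum and the adaptor Shc1 by 0.43 at 6 h in the E2F1 line.

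Of 10 growth factor receptor kinases in the table, 5 were higher and 3 lower at 2 h of serum (3 and 4 with equal totals), and 1 was higher and 9 lower at 12 h in the E2F1 line (median log2 -0.69). Pdgfra, a receptor for PDGF, went from 71387 and 57591 normalized counts to 10326 and 10304 at 2 h of serum, a drop of 2.64, and Fgfr1 rose by 1.00 there. In the E2F1 line at 6 h Pdgfrb fell by 0.96 and Met rose by 0.59. Of 10 p38 and JNK pathway kinases, 5 were higher and 1 lower at 2 h of serum (4 and 3 with equal totals), and 6 were higher and 1 lower at 6 h in the E2F1 line. Map2k3 rose by 1.85 and Map2k6 fell by 1.66 at 2 h of serum, both being kinases of p38. In the E2F1 line at 6 h Map3k5 (ASK1) had 690 and 558 normalized counts against 78 and 95 (log2 2.84), and Map2k6 fell by 0.71. All calls in these lists use the same limma fit and adjustment over all genes, and the counts are descriptions of lists put together with earlier results of these data known.

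**Figure D5:**
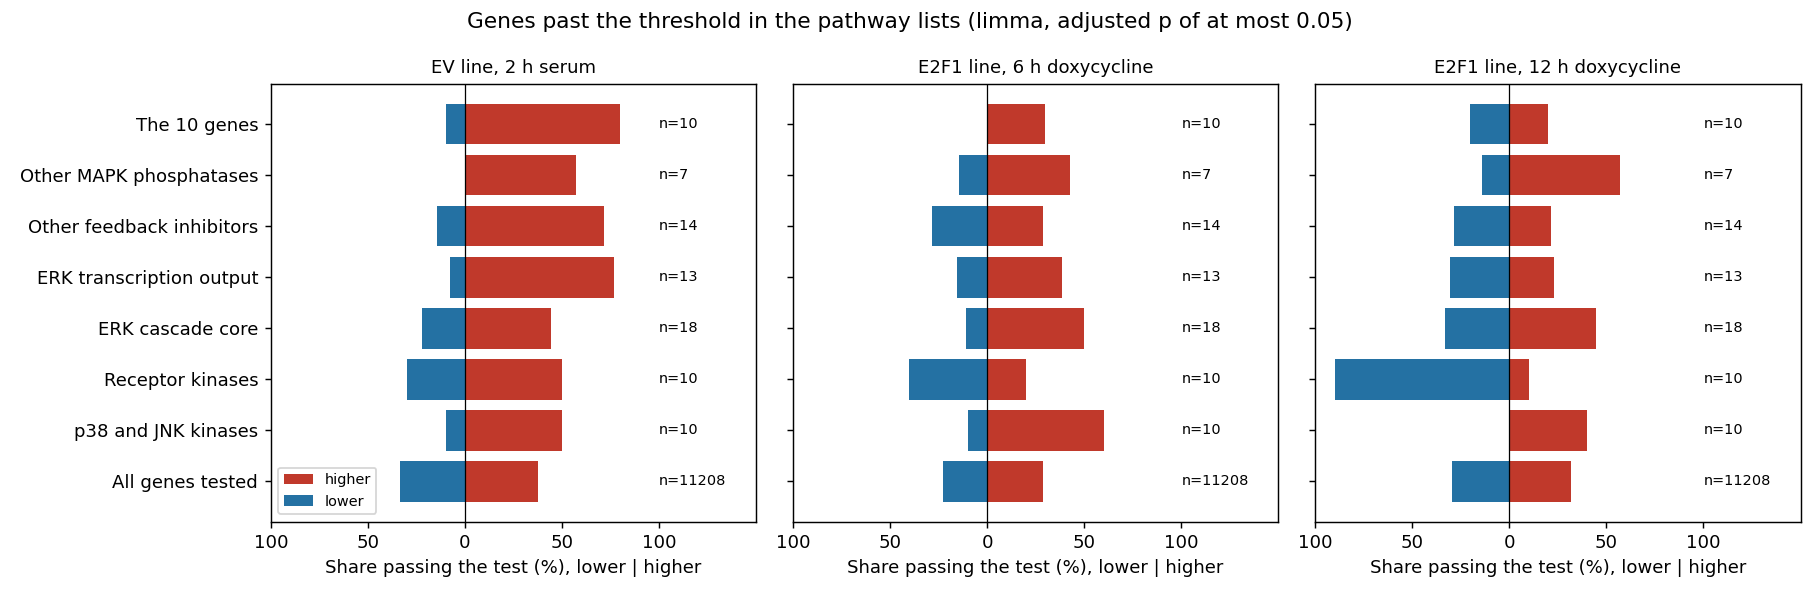
Share of genes (%) past an adjusted p of 0.05, higher to the right and lower to the left, for the 10 genes, the 6 pathway lists and all genes tested, at 2 h of serum and at 6 and 12 h of E2F1 induction; n is the number of genes in the table. Of the 10 genes, 8 are higher at 2 h of serum and 3 and 2 are higher at 6 and 12 h of E2F1 induction.

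The members' patterns over the 11 groups resembled each other to differing degrees (Pearson r of group mean log2 levels, given as a description over groups that share lines and treatments). Dusp5 and Dusp6 had r = 0.956, Spry2 and Spry4 0.942, Dusp4 and Dusp10 0.939, and Spred1 and Spred2 0.902. Dusp1 was unlike the raised genes, with r from -0.518 (Dusp4) to -0.015 (Spry4), and had r = 0.699 with Spry1. Among 10313 genes searched by this measure, the nearest to Dusp5 were Ptgs2 (0.993), the inducible cyclooxygenase, and Csf1 (0.985). Those nearest to Dusp6 were Ccn2 (0.988) and Epha2 (0.985), the latter also in the list of ERK targets. Nearest were Bdp1 (0.967) to Dusp4, Capn2 (0.977) to Dusp10, Trabd2b (0.959) to Spry2, Irf2bpl (0.950) to Spry4, Gmeb2 (0.970) to Spred1 and Lhfpl2 (0.958) to Spred2. For Spry1 the nearest was Atn1 (0.897) and for Dusp1 Wipf1 (0.762), the least close of the 10.

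The authors' deposited tables of changed genes list a member in 10 places. Their serum tables name a 0 h serum baseline of the EV line, and whether it is the same 2 libraries used here is not known. At 2 h of serum they give log2 fold changes of 6.50 for Dusp4, 4.20 for Dusp5, 3.17 for Dusp6, 2.96 for Dusp10 and 2.56 for Spred2. At 6 h the authors' deposited table gives 3.39 for Dusp4, 2.22 for Dusp5 and 2.33 for Dusp6, and at 12 h 2.17 for Dusp4. For the EV line at 2 h of doxycycline the authors' deposited table gives 2.22 for Dusp4, the member whose call there was lost with any library left out. The genes listed in these tables start at an absolute log2 fold change of 2, so the other members and times fall outside them or below it.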

How the data were processed

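RNA was measured in 22 libraries of 150-base paired-end polyA sequencing. The submitters' processing notes name FastQC, Trimmomatic, HISAT2, featureCounts, DESeq2 and the mm10 build, with no versions or settings. The values are normalized counts that the authors deposited, whole numbers used here as a score and not as raw counts, so no count model was run and the original read depth is not used. The deposited table holds 11208 genes, each with a mean over the libraries of at least 99.6. The authors' deposited comparison tables give log2 fold changes and adjusted p-values, per the file headers.

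Here log2(value + 1) was fitted with limma 3.58.1 (R 4.3.3; mean-variance trend, 11 group means, 11 residual degrees of freedom), with Benjamini-Hochberg adjustment over 11208 genes per comparison and a threshold of 0.05. A filter (a value of at least 10 in 2 libraries) removed no gene. A fold change is on the log2(value + 1) scale and understates low genes. Groups came from the sample labels. The fit was tested on simulated data for the comparison at 2 h of serum over 11208 genes. Of 100 genes changed 2-fold and 100 changed 4-fold, 82 and 100 were called, with 7 unchanged genes called. In the simulation all other genes were unchanged and the noise was independent between libraries, whereas 7952 genes were called in the real comparison. These counts therefore do not measure error rates in the data. Alternatives were a pseudocount of 8, no filter, a mean of at least 500 (8730 genes), quantile normalization, equal totals, a replicate block, the compared groups alone and leaving out each library. Leaving out the 4 doxycycline 2 h libraries was chosen after seeing the data. The 10 genes and the pathway lists were chosen with earlier results of these data known. Pathway genes named were those with the largest called change in each direction of each list at 2 h of serum and 6 h of E2F1 induction, plus a fixed set (Etv4, Etv5, Phlda1, Fosl1, Errfi1, Il17rd, Dusp7, Dusp16, Mapk3, Map2k1, Fgfr1, Pdgfrb and E2f1). Some genes that this rule names are not reported here. The patterns nearest to each gene are the 2 highest Pearson r over group means. Gene IDs of all 10 matched GENCODE M21.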

Additional observations from a re-analysis of the deposited data

Results flagged for a closer look

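By the limma test of the difference itself, the change from 0 h differed between the E2F1 and EV lines for few members. It did for 1 of the 10 genes at 6 h and 2 at 12 h, each called higher. Of all 11208 genes, 3866 were called in either direction at 6 h and 5665 at 12 h. Those called higher were 22.2% at 6 h and 27.3% at 12 h. For Spred1 the difference of log2 changes was 0.50 at 6 h and 0.58 at 12 h of doxycycline. For Spred2 it was 0.58 at 12 h. In each case the E2F1 libraries lay above those of the EV line at the same time. No group held the 4 libraries that a test for a library far from the others would need, and all columns of the table entered the fit.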

How the results depend on the processing

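Among members passing the test, the count was within 1.5 times the main one under every alternative that used all libraries, except the following. At 6 h of doxycycline in the E2F1 line the count stayed at 3 under quantile normalization and equal totals, but Spry1 and Spred2 (higher) gave way to Dusp6 and Dusp10 (lower). With the replicate block, 5 members passed at 2 h of doxycycline in the E2F1 line (main 3) and 2 between the lines at 0 h (main 1), and the same counts of 5 and 2 came from the compared groups alone. Between the lines at 0 h, 2 also passed with a pseudocount of 8 and with equal totals. With a mean of at least 500, which leaves out low genes, 3 passed for E2F1 against serum at 12 h (main 5) and 1 from 6 to 12 h of E2F1 induction (main 2). From 6 to 12 h of serum, 2 passed under quantile normalization and 2 with equal totals (main 4). With 1 library left out, the count at 2 h of doxycycline in the E2F1 line was 1 in each case, and ran from 1 to 5 at 6 h and from 0 to 4 from 6 to 12 h. They ran from 0 to 3 at 2 h and 0 to 2 at 12 h in the EV line, from 1 to 2 at 6 h and 1 to 3 at 12 h for E2F1 against EV, from 3 to 4 for E2F1 against serum at 12 h, and from 2 to 6 from 6 to 12 h of serum. A lone library left in a group was assumed to vary like the other groups. Values that did not pass also turned sign when a library was left out: Spry4 ran from -0.16 to 0.83 at 6 h of serum, from -0.97 to 0.18 at 6 h of E2F1 induction and from -0.92 to 0.22 from 6 to 12 h of it, Spry2 from -0.42 to 0.13 at 12 h of serum, Dusp5 from -1.02 to 0.091 at 6 h of E2F1 induction and Spred2 from -0.045 to 0.44 for E2F1 against serum at 6 h. For E2F1 against EV at 12 h, Dusp6 ran from -0.25 to 0.32 and was -0.12 under quantile normalization and -0.035 with equal totals. At 6 h of serum Spred2 was -0.089 with equal totals. The cause was not tested. The replicate numbers were not taken as pairs, since no label says what they mark: over 55 pairs of groups, same-numbered libraries deviated together with r from -0.277 to 0.455, above 0 in 34 pairs, and within a line over 0, 6 and 12 h of doxycycline from 0.142 to 0.455. With the replicate block Dusp1 passed at 6 h of serum (adjusted p = 0.0254), Spred2 at 12 h of serum (0.0284) and Spry4 at 12 h of doxycycline in the E2F1 line (0.0263). The block raised the calls over all genes for E2F1 against EV at 2 h from 16 to 33. The compared groups alone gave 45 there, 596 at 2 h of doxycycline in the E2F1 line (main 208), 400, 1 and 77 at 2, 6 and 12 h in the EV line (main 824, 15 and 467) and 652 between the lines at 0 h (main 1684). Quantile normalization gave 51 for E2F1 against EV at 2 h and 330 at 2 h of doxycycline in the E2F1 line, and a mean of at least 500 gave 5 for the former. Higher against lower calls shifted with equal totals to 2914 and 4772 at 6 h of serum (main 4093 and 3470), 2683 and 3781 at 6 h of E2F1 induction (main 3230 and 2569) and 2101 and 2251 for E2F1 against EV at 6 h (main 2493 and 1373). Read depth before normalization is not known here, so precision rests on the spread of 2 libraries a group.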
